A study of Homo sapiens with 9 samples.

Results

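The genes described here encode the Rag GTPases RRAGA, RRAGB, RRAGC and RRAGD, the Ragulator subunits LAMTOR1, LAMTOR2, LAMTOR3, LAMTOR4 and LAMTOR5, and the lysosomal amino acid transporter SLC38A9. They were chosen by name as the machinery that holds mTORC1 at the lysosome, and make up 10 of the 48162 genes in the deposited table. All 10 had enough counts to be tested, among 15776 genes tested in all.

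RNA was sequenced from SKMEL28 cells, a human melanoma line with mutant BRAF, in 9 libraries of 3 groups with 3 libraries each. The cells were grown in DMEM with 5% serum, transduced with lentivirus carrying short hairpin RNAs and selected for 3 days in 1 µg/ml puromycin. The shCont group carried a hairpin against GFP, the shp16 group a hairpin against p16, the cell cycle inhibitor encoded by CDKN2A, and the shp16/shATR group hairpins against both p16 and ATR, the kinase that responds to replication stress. Every group was thus transduced and drug-selected. The labels do not say whether shp16 cells also received a second, control hairpin, nor which of the paper's ATR hairpins was used. Between shp16/shATR and shp16 cells, loss of ATR cannot be told apart from a further transduction or from other effects of the hairpin. Nothing in the labels or the study's methods says that the libraries of a group came from separate cultures. The paper describes its mRNA values of the enzyme LSS as 1 experiment with 3 technical replicates. RNA sequencing is the only mRNA method it describes, but it does not say whether those replicates were these libraries. The p-values below thus measure only the spread between these libraries, which may be technical. In RNA from whole cultures, less of a transcript per cell and fewer cells carrying it cannot be told apart. The comparisons asked how these transcripts differed after p16 knockdown, and how they differed when ATR was knocked down as well.

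mTORC1 is the kinase complex that couples nutrients to growth. A Rag heterodimer pairs RRAGA or RRAGB with RRAGC or RRAGD, and when amino acids are plentiful it binds mTORC1 and brings it to the lysosomal surface, where the GTPase RHEB can activate it. Ragulator anchors the Rag heterodimer to that membrane. In Ragulator, LAMTOR1 carries the lipid anchor and wraps around a LAMTOR2 and LAMTOR3 pair and a LAMTOR4 and LAMTOR5 pair. SLC38A9 reports arginine from the lysosomal lumen to the Rag proteins and takes part in the sensing of lysosomal cholesterol together with NPC1. Factors of the MiT/TFE family, to which the melanocyte regulator MITF belongs, bind CACGTG and related letters at many lysosomal genes, and the Rag proteins in turn control where some of these factors reside in the cell.

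Promoter sequence was examined first, as a description with no test. RefSeq promoter windows on GRCh38.p14, from 250 bases before to 50 bases after the annotated start, were matched for 8 of the 10 genes, with 12 windows in all. RRAGA and RRAGD had no window, so RRAGA could not be set beside RRAGC. CACGTG, which reads the same on both strands, stood in the windows of 4 genes, RRAGB, RRAGC, LAMTOR1 and LAMTOR4, and in 7.26% of all 35116 windows. TCATGTG, searched on both strands, stood in the windows of 2 genes, LAMTOR1 and LAMTOR3, and in 2.92% of all windows. No match of the one overlapped a match of the other in these windows. The CACGTG matches are shown with 10 bases on either side, read 5′ to 3′ along the gene, with the match in capitals and its place counted from the start, the base before which is base -1.
RRAGC, chr1:38859869-38859894 on the minus strand, starting at base -112: gtgattccggCACGTGacggggcacc
RRAGB, chrX:55717624-55717649 on the plus strand, starting at base -115: gagccaaggcCACGTGatgatgacag
RRAGB, chrX:55717714-55717739 on the plus strand, starting at base -25: tagcggcagtCACGTGacagactccg
RRAGB, chrX:55717746-55717771 on the plus strand, starting at base 8: ggcagatgccCACGTGatcctggcct
LAMTOR1, chr11:72103447-72103472 on the minus strand, starting at base -165: ttccccgcatCACGTGcttgcgtgta
LAMTOR4, chr7:100148894-100148919 on the plus strand, starting at base -14: cggctgcaagCACGTGaccggggcct

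The TCATGTG matches, shown in the same way, were a pair in LAMTOR1 and 1 in the second of the LAMTOR3 windows.
LAMTOR1, chr11:72103477-72103503 on the minus strand, starting at base -196: aaagatgaagTCATGTGatccgccccg
LAMTOR1, chr11:72103283-72103309 on the minus strand, starting at base -2: ccgccgcgggTCATGTGaccggaaggg
LAMTOR3, chr4:99894406-99894432 on the minus strand, starting at base 6: aggtcatgaaTCATGTGacggtggctt

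The windows of LAMTOR2, LAMTOR5 and SLC38A9 held neither run of letters. RRAGC and LAMTOR2 were called in opposite directions between shp16/shATR and shCont cells. RRAGB, LAMTOR1 and LAMTOR4, which also hold CACGTG, were not called there with all libraries in the fit. The part of these letters in any change was not tested. For RRAGC and LAMTOR2, 200 bases upstream are shown whole, from base -250 to base -51, with CACGTG in capitals.
RRAGC, chr1:38859823-38860022 on the minus strand, 72.0% G and C: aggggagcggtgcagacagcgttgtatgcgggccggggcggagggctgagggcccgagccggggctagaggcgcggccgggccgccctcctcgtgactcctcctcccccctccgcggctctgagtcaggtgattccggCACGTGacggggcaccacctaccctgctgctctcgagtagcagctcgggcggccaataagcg
LAMTOR2, chr1:156054532-156054731 on the plus strand, 59.5% G and C: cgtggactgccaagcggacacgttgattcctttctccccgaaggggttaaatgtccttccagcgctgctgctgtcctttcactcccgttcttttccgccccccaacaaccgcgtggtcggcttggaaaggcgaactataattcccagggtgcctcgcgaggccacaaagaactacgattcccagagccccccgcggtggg

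The libraries held 17314662 to 23588174 counts each. The melanocyte markers PMEL, MLANA, TYR and SOX10 were high in all 9 libraries, with a lowest FPKM (fragments counted per kilobase of transcript, scaled to a common library total) of 92.6, for TYR. CDKN2A stood at 81.0 to 121 FPKM in shCont libraries, 57.1 to 79.9 in shp16 libraries and 63.1 to 71.2 in shp16/shATR libraries, and its log2 fold change of -0.48 ± 0.16 (SE) in shp16 against shCont cells did not pass the test (adjusted p = 0.0723, edgeR), while DESeq2 called it (adjusted p = 0.0418). It was -0.26 without shCont replicate 1, the highest library (adjusted p = 0.0681, edgeR). Without replicate 1 of both groups it was -0.16 (adjusted p = 0.0817, edgeR). The counts are given per gene, so CDKN2A transcripts that encode p16 were not told apart from any others of the gene. The paper states that its hairpin against p16 had been checked in earlier work. How far p16 itself was lowered in these cells was thus not tested by the CDKN2A values. ATR was lower in shp16/shATR than in shp16 cells, with a log2 fold change of -1.12 ± 0.22 (adjusted p = 0.0128, edgeR) that was called in 5 of 9 fits without 1 library, and was lost without shp16 replicate 1 or any 1 of the shp16/shATR libraries. Its 5.34 FPKM in shCont replicate 1 was under the 11.8 of the other shCont libraries. That library stood apart from the rest of its group by gene length. Genes of up to 1500 bases had a median log2 difference of 0.26 from the other shCont libraries, and genes over 4500 bases a median of -0.39. Leaving it out lowered the common dispersion of the edgeR fit, given as a coefficient of variation between libraries, from 0.149 to 0.0903.

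Among the members, LAMTOR4, with 730 bases of transcript, was 1.68 times as high in shCont replicate 1 as in the mean of the other shCont libraries, LAMTOR2, with 868 bases, 1.49 times and LAMTOR1, with 1346 bases, 1.47 times. RRAGC, RRAGD and LAMTOR3, with 2732, 4900 and 4226 bases, were at 0.923, 1.01 and 0.986 times that mean. RRAGB, with 2061 bases, was at 0.615 times. In shp16 replicate 1, LAMTOR4 was at 0.726 times and LAMTOR2 at 0.800 times the mean of the other shp16 libraries. Longer members were low there too, with LAMTOR5, of 1830 bases, at 0.591 times and LAMTOR3 at 0.761 times. RRAGA, of 1648 bases, was at 0.895 times and RRAGD at 1.21 times. Values without 1 or both of these libraries are given beside several results below, and the part of gene length in those results was not tested beyond the fit with a length trend removed, given in the closing section.

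**Figure D1:**
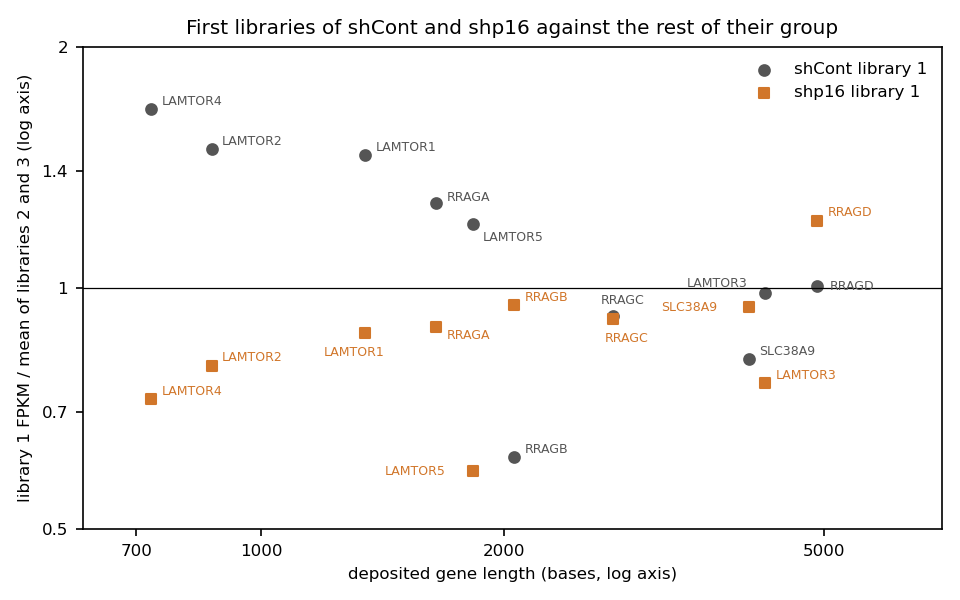
FPKM in replicate 1 of shCont (circles) and of shp16 (squares) divided by the mean of the other 2 libraries of its group, on a log axis, against the deposited gene length in bases, on a log axis, for the 10 genes. In shCont replicate 1 the short genes LAMTOR4, LAMTOR2 and LAMTOR1 sit at 1.68, 1.49 and 1.47 times and RRAGB at 0.615 times, while in shp16 replicate 1 LAMTOR4, LAMTOR3 and LAMTOR5 sit at 0.726, 0.761 and 0.591 times.

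RRAGA and RRAGC were the members called higher after p16 knockdown in the fit of all 9 libraries. RRAGA was 1.34 times and RRAGC 1.28 times as high in shp16 as in shCont cells, with no overlap between the groups, while their paralogs RRAGB and RRAGD did not pass the test. Over all genes tested, 7.23% were called higher and 7.59% called lower in this comparison, so that 48.8% of the calls were higher. The 2 of 10 members called higher and 0 called lower are read against these shares. With upper-quartile normalization 38.5% of the calls over all genes were higher, and 0 of the 10 members were called. Members called also numbered 0 with only the groups compared and with a replicate block. The groups did not overlap for 2 of the 10 members, against 32.7% of all genes tested.

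RRAGA, the partner that most cells use at this position of the heterodimer, is a gene of 1648 bases at chr9:19049372-19051019 on the plus strand as deposited, in GRCh37 positions like those of the other genes below. Its FPKM was 35.8, 27.9 and 28.2 in shCont libraries, 37.9, 43.5 and 41.3 in shp16 libraries and 43.8, 46.6 and 43.4 in shp16/shATR libraries. The shCont libraries were all below the shp16 libraries, with shCont replicate 1 the nearest to them. The log2 fold change was 0.42 ± 0.13 (SE) in shp16 against shCont cells (adjusted p = 0.0471, edgeR) and 0.54 ± 0.13 in shp16/shATR against shCont cells (adjusted p = 0.00995, edgeR). The first of these calls was lost in 8 of the 9 fits that left out 1 library, with an adjusted p of up to 0.151, and held only without shCont replicate 1, where the log2 fold change was 0.58 (adjusted p = 0.000114, edgeR). The second call held in all 9 such fits.

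RRAGB, closely related to RRAGA and found most of all in the brain, lies at chrX:55744172-55785207 on the plus strand. Its FPKM was 2.26, 3.65 and 3.71 in shCont libraries, 2.98, 2.83 and 3.42 in shp16 libraries and 3.48, 3.43 and 3.05 in shp16/shATR libraries. Apart from the low shCont replicate 1 these values lay close together and the groups overlapped in each comparison. Between shp16 and shCont cells the log2 fold change was -0.04, with an approximate 95% interval from -0.40 to 0.32, and -0.23 without shCont replicate 1 (adjusted p = 0.273, edgeR). The transcripts of RRAGA and RRAGB resemble each other over 281 bases at 86.1% identity, and whether any reads there were assigned to the other gene was not tested.

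RRAGC forms the other side of the heterodimer, which receives the GTPase-activating complex of FLCN, and lies at chr1:39303870-39325495 on the minus strand as deposited. Its FPKM was 20.2, 22.6 and 21.1 in shCont libraries, 25.5, 28.0 and 27.7 in shp16 libraries and 31.7, 29.1 and 32.5 in shp16/shATR libraries. Every shp16 library lay above every shCont library and below every shp16/shATR library. The log2 fold change was 0.35 ± 0.10 in shp16 against shCont cells (adjusted p = 0.0302, edgeR) and 0.55 ± 0.10 in shp16/shATR against shCont cells (adjusted p = 0.00172, edgeR). Between shp16/shATR and shp16 cells it was 0.20 ± 0.10 and did not pass the test (adjusted p = 0.279, edgeR). The call in shp16 against shCont cells was lost in 7 of the 9 fits without 1 library, with an adjusted p of up to 0.0964. It held without shCont replicate 1 and without shp16/shATR library b, and the log2 fold change stayed between 0.34 and 0.37 in all 9. A processed transcript annotated as AL139260.2 matches RRAGC over 1184 bases at 100% identity in the same orientation. It is not among the counted genes, and whether its reads were counted for RRAGC was not tested.

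RRAGD, the paralog of RRAGC and a known target of MiT/TFE factors, lies at chr6:90074355-90121989 on the minus strand. Its FPKM was 31.8, 30.7 and 32.6 in shCont libraries, 35.0, 29.1 and 28.5 in shp16 libraries and 32.02, 31.6 and 35.7 in shp16/shATR libraries. All 9 values overlapped across groups, the highest shp16 value being that of replicate 1. Between shp16 and shCont cells its log2 fold change was -0.02, with a 95% interval from -0.28 to 0.23, or -0.17 without shp16 replicate 1 (adjusted p = 0.374, edgeR), and between shp16/shATR and shCont cells 0.07, from -0.19 to 0.32.

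**Figure D2:**
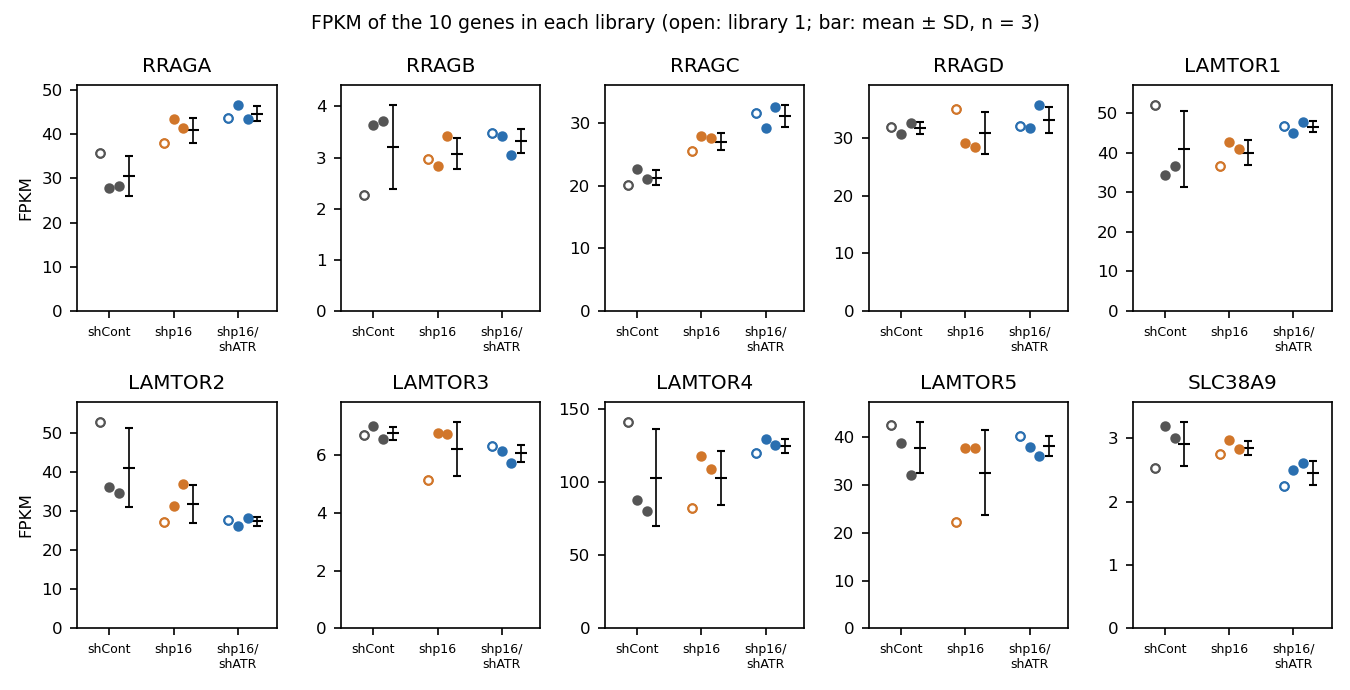
FPKM of each of the 10 genes (vertical axes from 0) in the 3 shCont, 3 shp16 and 3 shp16/shATR libraries, with replicate 1 as an open circle and the mean ± SD (n = 3) as a bar. RRAGC shows no overlap between any of the groups, RRAGA lies higher in both knockdown groups than in shCont, and the shCont spread of LAMTOR1, LAMTOR2 and LAMTOR4 comes with a high replicate 1.

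The make-up of the Rag transcript pool followed from these values. RRAGD gave 57.6% to 61.2% of the summed FPKM of RRAGC and RRAGD in shCont libraries, 50.7% to 57.9% in shp16 libraries and 50.3% to 52.3% in shp16/shATR libraries. The shCont and shp16 libraries met at 57.6% in shCont replicate 2 and 57.9% in shp16 replicate 1, while the other shp16 libraries were at 51.0% and 50.7%. On the log2 scale the RRAGD to RRAGC ratio was lower by -0.39 in shp16 against shCont cells (exact permutation test, two-sided, p = 0.2) and by -0.49 in shp16/shATR against shCont cells (exact permutation test, two-sided, p = 0.1), where 0.1 is the smallest p that 3 libraries against 3 allow. Between shp16/shATR and shp16 cells the difference was -0.10 (exact permutation test, p = 0.8), and it turned to 0.04 without shp16 replicate 1. Over the 6 permutation tests of ratios, the Benjamini-Hochberg adjusted p was 0.6 or higher.

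RRAGB was the minor partner throughout, at 5.95% to 11.6% of the summed FPKM of RRAGA and RRAGB in shCont libraries, 6.12% to 7.64% in shp16 libraries and 6.57% to 7.36% in shp16/shATR libraries. The shCont range was set by replicate 1, at 5.95%, since the other shCont libraries were both at 11.6%. The log2 ratio of RRAGB to RRAGA differed by -0.45 between shp16 and shCont cells (exact permutation test, two-sided, p = 0.4). When shCont replicate 1 was left out it differed by -0.81 (exact permutation test, p = 0.2), where 0.2 is the smallest p that the remaining libraries allow. With all libraries it differed by -0.47 between shp16/shATR and shCont cells (exact permutation test, p = 0.4) and by -0.01 between shp16/shATR and shp16 cells (exact permutation test, p = 1.0).

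Both sides of the heterodimer were more abundant in sum in the knockdown groups. RRAGA and RRAGB together stood at 31.5 to 38.1 FPKM in shCont libraries, 40.9 to 46.3 in shp16 and 46.5 to 50.01 in shp16/shATR libraries. RRAGC and RRAGD together stood at 52.0 to 53.7, 56.2 to 60.4 and 60.8 to 68.2 FPKM. In FPKM no group overlapped the next for either sum. For RRAGC and RRAGD the nearest were shp16 replicate 1 and shp16/shATR replicate 2, at 60.4 and 60.8. Their TMM factors were 0.939 and 1.016, so the TMM scaling used in the tests reverses that order. The sums were not tested, and 32.7% and 37.5% of single genes tested did not overlap in these 2 steps. The ratio of the RRAGA and RRAGB sum to that of RRAGC and RRAGD overlapped between all groups. It was 0.592 to 0.732 in shCont libraries, 0.677 to 0.812 in shp16 and 0.682 to 0.823 in shp16/shATR libraries.

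**Figure D3:**
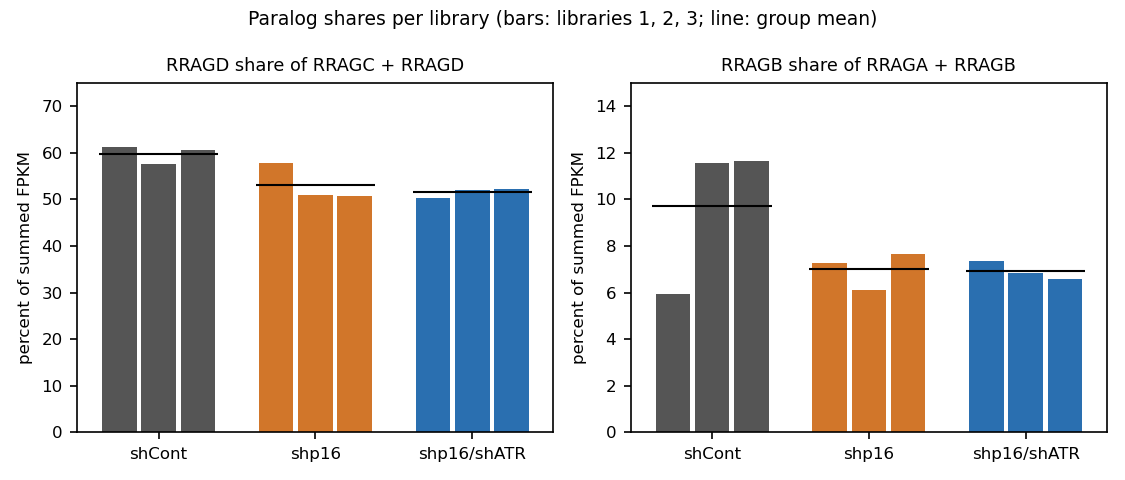
RRAGD as a percent of the summed FPKM of RRAGC and RRAGD (left) and RRAGB as a percent of that of RRAGA and RRAGB (right), 1 bar per library in the order of replicates 1, 2 and 3, with the group mean as a line. The mean RRAGD share is 59.8% in the shCont group, 53.2% in shp16 and 51.6% in shp16/shATR libraries, with shp16 replicate 1 at 57.9%, and the RRAGB share of shCont replicate 1 lies at 5.95% beside 11.6% in the other shCont libraries.

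Among the 5 Ragulator genes none was called by edgeR between shp16 and shCont cells when all 9 libraries entered the fit, with 0 at an unadjusted p under 0.05 and 0 called by DESeq2, and LAMTOR2 was the member that fell when shp16/shATR cells were set against shCont cells. LAMTOR2, which pairs with LAMTOR3 in the complex, lies at chr1:156024543-156028301 on the plus strand as deposited. Its FPKM was 52.8, 36.2 and 34.8 in shCont libraries, 27.4, 31.5 and 37.0 in shp16 libraries and 27.8, 26.2 and 28.4 in shp16/shATR libraries. The shp16/shATR libraries lay below every shCont library, and the shp16 libraries overlapped both groups. The log2 fold change was -0.60 ± 0.18 (SE) in shp16/shATR against shCont cells (adjusted p = 0.0289, edgeR) and -0.34 without shCont replicate 1 (adjusted p = 0.0221, edgeR). This call was lost without any 1 of the shp16/shATR libraries a, b and c, with an adjusted p of up to 0.105, and also with only the groups compared (adjusted p = 0.0603, edgeR) and with a replicate block (adjusted p = 0.0604, limma). Between shp16 and shCont cells the log2 fold change was -0.38 ± 0.17 (adjusted p = 0.173, edgeR), and -0.12 without shCont replicate 1 (adjusted p = 0.417, edgeR).

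LAMTOR3 lies at chr4:100799493-100815647 on the minus strand, and was the least abundant Ragulator transcript per length. Its FPKM was 6.70, 7.01 and 6.58 in shCont libraries, 5.14, 6.77 and 6.74 in shp16 libraries and 6.33, 6.16 and 5.74 in shp16/shATR libraries. The shp16/shATR libraries were all below the shCont libraries, by a log2 fold change of -0.15 ± 0.11 that did not pass the test (adjusted p = 0.353, edgeR). The processed pseudogenes LAMTOR3P1 and LAMTOR3P2, alike to it over 374 and 199 bases at 91.4% and 90.5% identity, held 0 and 7 counts over the 9 libraries. Transcripts of other, well counted genes resemble it over shorter stretches. Among them are TMEM192, over 117 bases at 89.7% identity with 6390 counts, and HAT1, over 136 bases at 86.0% in reverse orientation with 25745 counts. Whether any reads there were assigned to the other gene was not tested.

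LAMTOR1, the anchor of the complex, lies at chr11:71796941-71814433 on the minus strand. Its FPKM was 52.0, 34.3 and 36.6 in shCont libraries, 36.6, 42.6 and 40.8 in shp16 libraries and 46.7, 45.0 and 47.8 in shp16/shATR libraries. The shCont group spanned the other groups through replicate 1 alone, and the shp16/shATR libraries lay above all shp16 libraries. With all libraries the log2 fold change was -0.04 in shp16 against shCont cells (adjusted p = 0.900, edgeR) and 0.18 in shp16/shATR against shCont cells (adjusted p = 0.470, edgeR). Without shCont replicate 1 these were 0.20 (adjusted p = 0.0726, edgeR) and 0.42 (adjusted p = 0.00136, edgeR). The antisense neighbour LRTOMT spans the same stretch and held 7.69% as many counts, and the strand setting of the counting is not given in the sources used here.

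LAMTOR4, at chr7:99746530-99753567 on the plus strand, was the most abundant of the 10 genes per length in every library. Its FPKM was 140.7, 87.6 and 80.4 in shCont libraries, 82.0, 117 and 108 in shp16 libraries and 120, 129 and 125 in shp16/shATR libraries. Replicate 1 was the highest of the shCont and the lowest of the shp16 libraries, and all shp16/shATR libraries lay above the shp16 libraries. The log2 fold change in shp16 against shCont cells was -0.02 ± 0.20 with all libraries (adjusted p = 0.969, edgeR), 0.31 without shCont replicate 1 (adjusted p = 0.0388, edgeR) and 0.42 without replicate 1 of both groups (adjusted p = 0.000106, edgeR). In shp16/shATR against shCont cells it was 0.27 ± 0.20 (adjusted p = 0.377, edgeR), and 0.60 without shCont replicate 1 (adjusted p = 0.000766, edgeR). The antisense gene C7orf43 overlaps LAMTOR4 by 1525 bases and held 29.6% as many counts over its whole length. Without the strand setting of the counting, it is not known whether reads of this overlap were told apart.

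LAMTOR5, the partner of LAMTOR4, lies at chr1:110943871-110950564 on the minus strand. Its FPKM was 42.6, 38.7 and 32.1 in shCont libraries, 22.3, 37.7 and 37.8 in shp16 libraries and 40.2, 37.9 and 36.0 in shp16/shATR libraries. The groups overlapped in every comparison, and shp16 replicate 1 stood alone at the low end. Its log2 fold change in shp16 against shCont cells was -0.22, with a 95% interval from -0.56 to 0.11. It was -0.04 without shp16 replicate 1 (adjusted p = 0.902, edgeR) and 0.09 without replicate 1 of both groups (adjusted p = 0.421, edgeR). The antisense LAMTOR5-AS1 held 2.05% as many counts as LAMTOR5 and the processed pseudogene LAMTOR5P1 held 0.

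Ragulator is built from equal numbers of its subunits, but the transcripts were unequal per length. The highest of the 5 LAMTOR values was 12.2 to 21.0 times the lowest in shCont libraries, 15.9 to 17.3 times in shp16 libraries and 18.9 to 21.8 times in shp16/shATR libraries. The summed LAMTOR FPKM was 294.9 in shCont replicate 1, against 203.8 and 190.5 in the other shCont libraries, 173 to 236 in shp16 libraries and 241 to 245 in shp16/shATR libraries. The shp16/shATR sums thus lay closest together, and above those of all libraries except shCont replicate 1.

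SLC38A9 lies at chr5:54921673-55069022 on the minus strand and was the least abundant of the 10 genes per length, by group mean of FPKM. Its FPKM was 2.52, 3.19 and 3.01 in shCont libraries, 2.74, 2.97 and 2.83 in shp16 libraries and 2.25, 2.50 and 2.61 in shp16/shATR libraries. The shp16/shATR libraries were all below the shp16 libraries but overlapped the shCont libraries through replicate 1 of the latter. The log2 fold change of -0.22 ± 0.13 in shp16/shATR against shp16 cells did not pass the test (adjusted p = 0.385, edgeR), nor did that of -0.23 ± 0.13 in shp16/shATR against shCont cells (adjusted p = 0.214, edgeR). The latter was -0.31 without replicate 1 of both shCont and shp16 (adjusted p = 0.0405, edgeR). The gene held 157 to 246 counts per library, while the shorter RRAGB held 110 to 161.

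Adding the ATR hairpin to p16 knockdown gave no member past the test. With edgeR 0 of the 10 members were called between shp16/shATR and shp16 cells and 0 had an unadjusted p under 0.05, and with DESeq2 0 were called and 1 had an unadjusted p under 0.05. Over all genes tested, 2.73% were called higher and 3.49% called lower, so that 43.8% of the calls were higher, or 54.2% with upper-quartile normalization. RRAGC, LAMTOR1 and LAMTOR4 were higher and SLC38A9 lower in every shp16/shATR library than in any shp16 library, which makes 4 of the 10 members without overlap, against 37.5% of all genes tested. The 10 log2 fold changes ran from -0.22, for LAMTOR2, to 0.28, for LAMTOR4, with a median of 0.11, against 0.00 over all genes tested. The widest 95% interval was that of LAMTOR4, from -0.11 to 0.68. The library shCont replicate 1 is in neither group compared here. It enters only through the filter on counts, the library scaling and the estimate of the spread. Without it LAMTOR1 and LAMTOR4 were called higher, at a log2 fold change of 0.22 (adjusted p = 0.0437, edgeR) and 0.28 (adjusted p = 0.0420, edgeR). That fit called 3223 of 16184 genes in place of 981. Without replicate 1 of both shCont and shp16, 5 members were called, RRAGC, RRAGD, LAMTOR1 and LAMTOR4 higher and LAMTOR2 lower, in a fit that called 4304 of 16104 genes.

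Set against shCont cells, the cells with both hairpins had 2 members higher, RRAGA and RRAGC, and 1 lower, LAMTOR2. Over all genes tested, 10.9% were called higher and 12.7% lower. RRAGA, RRAGC, LAMTOR2 and LAMTOR3 did not overlap between the groups, which is 4 of the 10 members, against 41.5% of all genes tested. Without shCont replicate 1 the count of members called was 5, with LAMTOR1 and LAMTOR4 added as higher, in a fit that called 5395 of 16184 genes in place of 3724. The 3 comparisons share libraries with each other, so their values are not independent.

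**Figure D4:**
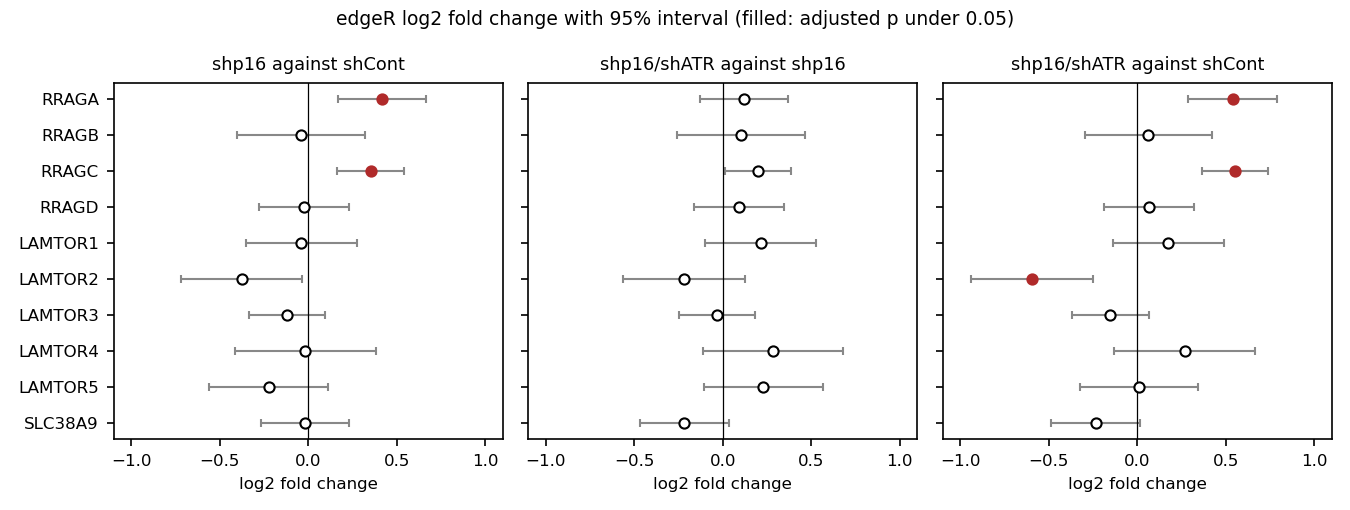
log2 fold change of the 10 genes with an approximate 95% interval in the 3 comparisons, from the edgeR fit over all 9 libraries, with filled points at an adjusted p under 0.05. The intervals are a normal approximation from the SE and narrower than the test implies, so that some exclude 0 at open points. RRAGA and RRAGC are filled in both comparisons with shCont and LAMTOR2 in that of shp16/shATR against shCont, while no point is filled in shp16/shATR against shp16.

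The order of the 10 genes by mean FPKM was similar in the 3 groups at both ends. LAMTOR4 led in each group and did not overlap the next gene, and LAMTOR3, RRAGB and SLC38A9 closed the order. Between them lay LAMTOR2, LAMTOR1, LAMTOR5, RRAGD, RRAGA and RRAGC. In shCont cells LAMTOR2 came second with a mean of 41.3 FPKM and overlapped LAMTOR1 (41.0), which overlapped LAMTOR5 (37.8). In shp16/shATR cells LAMTOR2 came seventh with a mean of 27.4 FPKM, under RRAGC (31.1), and overlapped neither of its neighbours. RRAGA stood sixth in shCont libraries, with a mean of 30.6 FPKM, second in shp16, with 40.9, where it overlapped LAMTOR1, and next after LAMTOR1 in shp16/shATR, with 44.6. RRAGB and SLC38A9 overlapped each other in shCont and shp16 cells, and in shp16/shATR cells RRAGB was above SLC38A9 in all libraries.

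The wider pathway was read from 50 further genes in 5 lists, mTORC1 with RHEB and the TSC complex, the complexes that regulate the Rag proteins, lysosomal partners, the BORC complex, and the MiT/TFE factors. CASTOR1 and TFEC had too few counts, which left 48 tested. In shp16 against shCont cells 5 were called higher and 2 lower, in shp16/shATR against shp16 cells 2 higher and 1 lower, and in shp16/shATR against shCont cells 7 higher and 4 lower. These make 14.6%, 6.25% and 22.9% of the genes tested, against 14.8%, 6.22% and 23.6% of all genes tested. With upper-quartile normalization the first of these splits was 3 higher and 4 lower. The median log2 fold change over the 48 was 0.06, 0.03 and 0.05 in the 3 comparisons, against -0.02, 0.00 and -0.02 over all genes tested. The counts depended on the libraries. In shp16 against shCont cells 15 were called without shCont replicate 1, 2 without shCont replicate 2, 10 without shCont replicate 3, and 3, 1 and 3 without shp16 replicates 1, 2 and 3. With shp16/shATR library a, b or c left out they were 3, 4 and 5. In shp16/shATR against shp16 cells the count was 11 without shCont replicate 1 and 1 without shCont replicate 2, 0 without any 1 of the shp16 libraries, and 0, 0 and 1 without shp16/shATR library a, b and c. Between shp16/shATR and shCont cells it was 19 without shCont replicate 1, 7 without shCont replicate 2 or shp16 replicate 3, and 6, 7 and 6 without shp16/shATR library a, b and c.

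Among the mTORC1 and TSC genes, MTOR, the kinase itself, was at 22.3, 35.0 and 36.4 FPKM in shCont and 51.1, 42.2 and 42.1 in shp16 libraries. Its log2 fold change was 0.55 ± 0.17 (adjusted p = 0.0456, edgeR), with shCont replicate 1 the lowest and shp16 replicate 1 the highest library. It was 0.23 without these libraries (adjusted p = 0.00446, edgeR), and the call held in 2 of 9 fits without 1 library. TBC1D7, a subunit of the TSC complex, rose in both steps, by a log2 fold change of 0.39 ± 0.12 in shp16 against shCont cells (adjusted p = 0.0497, edgeR) and 0.54 ± 0.12 in shp16/shATR against shp16 cells (adjusted p = 0.0221, edgeR). Its FPKM was 67.4 to 82.9 in shCont libraries, 82.4 to 107 in shp16 and 134 to 147 in shp16/shATR libraries, where shCont and shp16 overlapped through replicate 1 of each. These calls of TBC1D7 held in 2 and 3 of 9 fits without 1 library. RHEB, the activator of mTORC1, was not called, with log2 fold changes of -0.10 and 0.34 (adjusted p = 0.623 and 0.121, edgeR).

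Among the regulators of the Rag proteins 3 of 20 tested genes were called in shp16 against shCont cells, all higher, where 7.23% of all genes tested were called higher and 7.59% lower. They were SESN3 and SESN2, of the Sestrin family that restrains mTORC1 through the GATOR complexes, and KICS2, of the KICSTOR complex, which lies outside the rule for named genes and was named after its value was seen. SESN3 had a log2 fold change of 0.70 ± 0.17 (adjusted p = 0.0184, edgeR) and stood at 4.06, 7.09 and 7.41 FPKM in shCont libraries, 9.48, 10.6 and 9.77 in shp16 and 12.03, 12.3 and 12.8 in shp16/shATR libraries. SESN2, a leucine sensor, rose by 0.60 ± 0.15 in shp16 against shCont cells (adjusted p = 0.0197, edgeR) and fell by 0.57 ± 0.15 on the log2 scale in shp16/shATR against shp16 cells (adjusted p = 0.0436, edgeR). Its FPKM was 2.58, 2.72 and 2.44 in shCont libraries, 3.58, 4.41 and 3.69 in shp16 and 2.29, 2.52 and 3.06 in shp16/shATR libraries, so that the shp16 libraries were above all others. The rise was called in 7 of 9 fits without 1 library, and the fall in 3 of 9. FLCN, which with its partner proteins activates the GTPase of RRAGC and RRAGD, was not called in either step, with log2 fold changes of 0.10 and 0.26 (adjusted p = 0.619 and 0.242, edgeR).

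Among the lysosomal partners 2 of 8 were called in shp16 against shCont cells, both lower, against the same shares of all genes tested. GPR155, a lysosomal cholesterol sensor, stood at 6.14, 8.24 and 8.67 FPKM in shCont libraries, 3.45, 4.31 and 4.03 in shp16 and 4.38, 4.17 and 3.84 in shp16/shATR libraries. Its log2 fold change of -0.96 ± 0.13 in shp16 against shCont cells (adjusted p = 0.000453, edgeR) was past the threshold in all 21 alternatives. RNF152, a ubiquitin ligase that acts on RRAGA, stood at the low levels of 0.308, 0.612 and 0.641 FPKM in shCont and 0.230 to 0.253 in shp16 libraries. Its log2 fold change of -1.08 ± 0.31 (adjusted p = 0.0349, edgeR) held in 3 of 9 fits without 1 library. Over all 21 alternatives it ran from -1.38 to -0.285 and passed the threshold in 10. The value of -0.285 came from limma on log2(FPKM + 1) with a replicate block (adjusted p = 0.0895). SLC66A1, a lysosomal exporter of basic amino acids, rose in shp16/shATR against shp16 cells by a log2 fold change of 0.53 ± 0.14 (adjusted p = 0.0447, edgeR), from 24.3 to 30.1 FPKM to 38.8 to 41.2, but stood at 38.3 FPKM in shCont replicate 1. That call held in 2 of 9 fits without 1 library. NPC1, the lysosomal cholesterol transporter, had log2 fold changes of 0.09 and 0.03 and was not called in either step (adjusted p = 0.673 and 0.925, edgeR).

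Of the 8 genes of the BORC complex, which moves lysosomes towards the cell edge and which Ragulator can hold back, none was called by edgeR or DESeq2 in shp16 against shCont or in shp16/shATR against shp16 cells, with 1 at an unadjusted p under 0.05 in each step by either tool. Of the 3 MiT/TFE factors tested none was called in either step by edgeR, with 0 and 1 at an unadjusted p under 0.05, while DESeq2 called 0 and 1. The latter was TFEB, named after its value was seen, with mean FPKM of 0.457, 0.542 and 1.04 in the 3 groups. Its log2 fold change was 0.93 ± 0.26 in shp16/shATR against shp16 cells (adjusted p = 0.0575, edgeR). In shp16/shATR against shCont cells it was called higher, at 1.18 ± 0.26 (adjusted p = 0.00765, edgeR), where 10.9% of all genes tested were called higher. MITF stood at 109, 154 and 166 FPKM in shCont libraries, 161, 147 and 142 in shp16 and 128, 128 and 133 in shp16/shATR libraries, with log2 fold changes of 0.09 and -0.22 in the 2 steps (adjusted p = 0.737 and 0.446, edgeR).

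**Figure D5:**
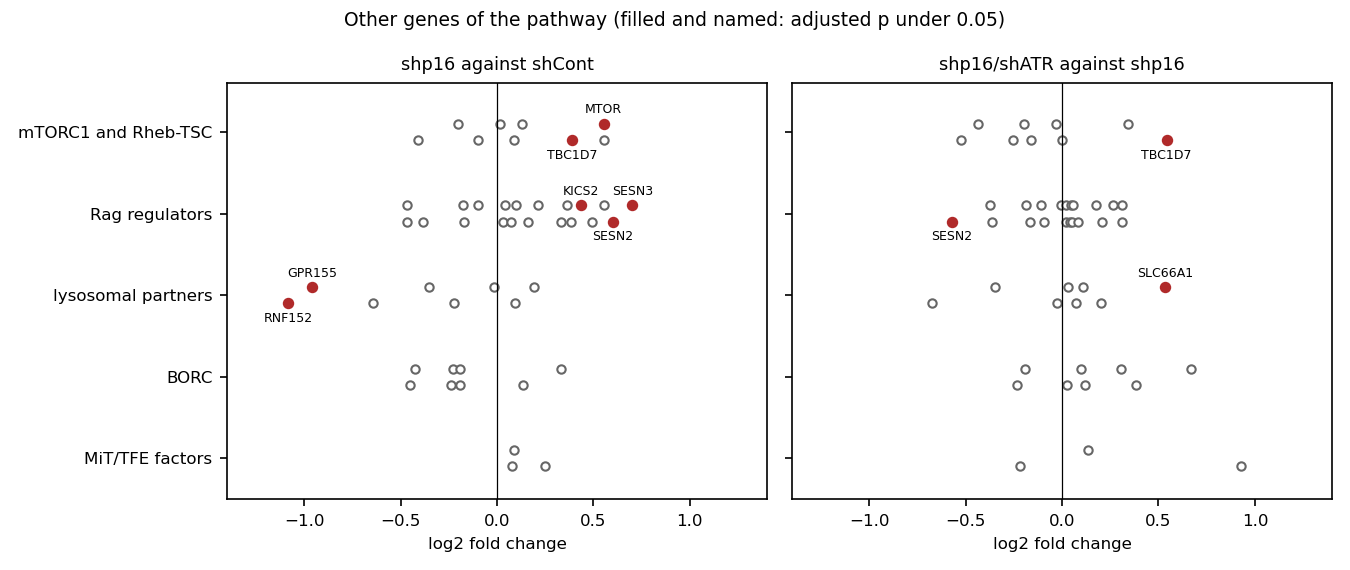
log2 fold change of the 48 tested pathway genes by list in shp16 against shCont (left) and shp16/shATR against shp16 (right), with genes at an adjusted p under 0.05 filled and named. GPR155 and RNF152 lie lowest on the left at -0.96 and -1.08, SESN2 is filled on the right of the left panel at 0.60 and on the left of the right panel at -0.57, and TBC1D7 is filled in both.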

How the data were processed

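The authors deposited raw counts for 48162 genes in 9 libraries and FPKM values, which were recovered from the counts by dividing by gene length and by the library total, with a largest relative difference of 4.22e-07. RNA was taken up in Trizol and libraries were made with the NEBNext Ultra 2 kit. The submitters' processing notes name STAR 2.6.1, DESeq2 version 2 and GRCh38, whereas the deposited gene positions are those of GRCh37, with a largest end on chromosome 1 of 249231242. Positions are therefore given as deposited, and promoters on GRCh38.p14 are given apart from them. The counting tool and its strand setting are not given in the sources used here. The shp16/shATR count columns share 1 name and are called a, b and c, and by their values they match FPKM replicates 1, 2 and 3.

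Differences were tested on the counts with edgeR 4.0.16 (R 4.3.3), in a quasi-likelihood fit of all 9 libraries with a coefficient for each group. Library sizes were scaled by TMM, genes were filtered by filterByExpr, and p-values were adjusted by Benjamini-Hochberg over 15776 genes. A gene was called at an adjusted p under 0.05. Levels are FPKM, and groups were said not to overlap when their FPKM ranges were disjoint. Ratios of paralogs were compared with two-sided exact permutation tests (scipy 1.17.1, numpy 2.4.6, pandas 2.3.3, python 3.11.15). Promoter windows are from RefSeq, and transcripts alike over at least 100 bases at 85% identity were searched for in GENCODE 29. The edgeR step was tested on simulated data.

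Named genes are the 10 members, CDKN2A and ATR, of the other pathway genes at most the 5 largest called changes in each of the first 2 comparisons, and FLCN, RHEB, NPC1 and MITF. Some genes of the lists are not reported here and were left out of their counts. The members and lists were chosen with earlier results of these data known. Alternatives were DESeq2 1.42.0, upper-quartile or library-size scaling, other filters on low counts, only the groups compared, limma 3.58.1 on log2(FPKM + 1) or log2(FPKM + 0.1), a replicate block and leaving out each library. Removing a trend with gene length (a spline of 5 degrees of freedom) and leaving out replicate 1 of shCont and shp16 together were added after seeing the data.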

Additional observations from a re-analysis of the deposited data

How the results depend on the processing

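Of 185 values of counts and ratios under alternatives, 122 stayed within 1.5 times the value reported or kept their direction, 59 moved and 4 reversed. Of 1403 values of single genes, 1197 kept direction and call, 126 lost the call, 31 gained it and 49 reversed. RRAGA and RRAGC in shp16/shATR against shCont cells were called in all 20 alternatives, and in shp16 against shCont cells each in 9 of 21, with no change of direction. The cause of the changes was not tested.

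In shp16 against shCont cells members called numbered 0 with upper-quartile normalization and 0 with only the groups compared, 1 with no filter on low counts, 4 without replicate 1 of both groups, and 0 to 3 without 1 library. Other pathway genes called numbered 11 with no filter, 2 with only the groups compared, 4 with limma at either pseudocount, 11 with the length trend removed, 18 without replicate 1 of both groups and 1 to 15 without 1 library. In shp16/shATR against shp16 cells members numbered 1 with only the groups compared, 5 without replicate 1 of both groups and 0 to 2 without 1 library, and other pathway genes 11, 16 and 0 to 11, or 5 with the length trend removed. In shp16/shATR against shCont cells members numbered 6 without replicate 1 of both groups and 2 to 5 without 1 library, and other pathway genes 27 and 6 to 19, or 7 with only the groups compared. Without 1 library, members without overlap numbered 2 to 5, 4 to 7 and 4 to 8 in the 3 comparisons.

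Same-numbered libraries did not deviate together (correlations of -0.12, 0.04 and -0.18 between shCont and shp16), so replicate numbers were not taken to pair them. With a replicate block, members called in shp16 against shCont cells fell to 0 with limma and 0 with edgeR, and other pathway genes to 2 and 1. Between shp16/shATR and shCont cells the block left 2 members called, RRAGA and RRAGC, and LAMTOR2 was lost. Other pathway genes in shp16/shATR against shp16 cells fell to 0 with the block, and in shp16/shATR against shCont cells to 7.

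The reversed log2 values without 1 library lay in these ranges. In shp16/shATR against shp16 cells the RRAGD to RRAGC ratio ran from -0.17 to 0.039 and the RRAGB to RRAGA ratio from -0.12 to 0.056, and LAMTOR3 ran from -0.12 to 0.0090. In shp16 against shCont cells RRAGB ran from -0.23 to 0.079, RRAGD from -0.17 to 0.054, LAMTOR1 from -0.17 to 0.20, LAMTOR4 from -0.17 to 0.31, SLC38A9 from -0.090 to 0.027, ATR from -0.12 to 0.33, RHEB from -0.17 to 0.0075, NPC1 from -0.052 to 0.17 and MITF from -0.059 to 0.21. In shp16/shATR against shCont cells RRAGB ran from -0.12 to 0.18, RRAGD from -0.0038 to 0.11, LAMTOR5 from -0.10 to 0.13, SESN2 from -0.11 to 0.12 and NPC1 from -0.019 to 0.20.

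With the length trend removed, the log2 fold change in shp16 against shCont cells was 0.045 for RRAGB, 0.081 for LAMTOR1, 0.048 for LAMTOR4 and 0.0034 for RHEB. Without replicate 1 of both groups it was 0.23 for LAMTOR1, 0.42 for LAMTOR4, 0.088 for LAMTOR5, -0.17 for ATR, 0.0056 for SLC66A1, 0.078 for RHEB, -0.019 for NPC1 and -0.16 for MITF. With those libraries out, NPC1 was -0.0035 in shp16/shATR against shp16 cells, and in shp16/shATR against shCont cells RRAGB was -0.13 and NPC1 -0.023. LAMTOR4 in shp16 against shCont cells was 0.0021 with no filter, 0.024 and 0.025 with limma at a pseudocount of 1 and 0.1, and 0.024 with limma and 0.036 with edgeR under the block. With upper-quartile normalization LAMTOR3 was 0.0041 in shp16/shATR against shp16 cells and LAMTOR5 -0.015 in shp16/shATR against shCont cells. SLC38A9, at 157 to 246 counts per library, and RRAGB, at 110 to 161, had the least depth behind their values.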

Other observations

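The range of group means on the log2 CPM scale, on which counts are scaled to a common library total, was 0.56 for LAMTOR2, 0.55 for RRAGA and 0.55 for RRAGC, and LAMTOR2 was taken for the comparison that follows. Its lead is small and rests on shCont replicate 1, without which the log2 fold change in shp16/shATR against shCont cells was -0.34 for LAMTOR2 and 0.70 for RRAGA. Over the 9 libraries the genes whose log2 CPM ran most like LAMTOR2, among 10735 genes with a mean of at least 5 CPM, were JMJD6 (Pearson r = 0.98), ZNF574 (0.98), CNPPD1 (0.97), MRRF (0.97) and POLR3GL (0.97). The libraries share 3 groups, and shCont replicate 1 is the highest for LAMTOR2, so these values are a description with no test. Their lengths ran from 1603 bases for POLR3GL to 5298 bases for JMJD6, against 868 bases for LAMTOR2.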
